A study of Mus musculus with 6 samples.

Results

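The semaphorins, the plexins and the neuropilins were measured in bone marrow-derived macrophages (BMDMs), which are bone marrow cells cultured until they become macrophages. Members were chosen by a rule on names that uses no measured value, though earlier results of these data were known. They are the protein-coding genes whose symbol is Sema followed by a digit, Plxna, Plxnb, Plxnc or Plxnd, or Nrp1 or Nrp2. The rule found 31 genes of the 40481 in the count table, of which 20 are semaphorins, 9 are plexins and 2 are neuropilins. BMDMs of 3 wild-type samples were compared with BMDMs of 3 Scd2-m/-m samples, with 1 poly(A)-selected RNA library each and no stimulus. The Scd2-m/-m mice carry floxed alleles of Scd2, a stearoyl-CoA desaturase that makes monounsaturated fatty acids, and the lysozyme M-Cre transgene, which deletes floxed sequence in cells of the myeloid lineage. The sources used here do not say whether the wild-type mice carried the transgene, so the transgene and the deletion cannot be told apart. The study worked with adult mice of both sexes. No sex or age is given for a library, and the sex-linked transcripts further down read as female in all 6. Marrow was differentiated for 5 to 6 days in medium with 10% CMG-conditioned medium, and mature macrophages were kept in medium with 2%.

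The libraries held between 46285176 and 57629638 counts on genes, and the members took between 0.462% and 0.489% of them. Levels are given as CPM, which are counts scaled to a common library total with trimmed-mean (TMM) factors, and as CPM per kilobase of exonic length (RPKM) where genes are set beside each other. Scd2 stood at 66.9, 77.8 and 62.7 CPM in wild-type libraries and at 59.5, 38.0 and 39.8 CPM in Scd2-m/-m libraries. The groups did not overlap, the mean level in Scd2-m/-m was 66.2% of wild-type, and the difference did not pass the test (log2 fold change -0.59, false discovery rate (FDR) 0.1002). Scd2-m/-m replicate 1 was close to wild-type replicate 3. The study also measured Scd2 by quantitative PCR and reports a much larger fall there, whereas the values here are counts on the whole gene. All 10 macrophage markers on a list that includes Csf1r, Adgre1 and Cd68 were tested, and the lowest of them averaged 179 CPM in wild-type. None of the 8 T and NK cell markers reached the filter.

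Semaphorins are extracellular guidance cues, first known from the steering of growing axons, and they act on cell shape, adhesion and migration. Class 3 semaphorins are secreted, classes 4, 5 and 6 span the membrane, and Sema7a is anchored by a lipid. Plexins are their signalling receptors and act on small GTPases, while neuropilins are co-receptors that bind class 3 semaphorins and vascular endothelial growth factors. In the immune system Sema4a and Sema4d are known for contacts between antigen-presenting cells and lymphocytes, and Sema7a and Sema3a for acting on macrophages and T cells.

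The promoter windows of the 4 members that passed the test between genotypes are shown first, because these are the genes the comparison below turns on. Each window is 300 bases of RefSeq sequence (GRCm38.p6), from 250 bases before the annotated start site to 50 bases after it, read 5' to 3' on the strand of the gene. Capitals mark every match to a GC box (GGGCGG), a PU.1 core (GAGGAA) or an AP-1 site (TGACTCA) on either strand. The Sema4c window lies at chr1:36558332-36558631 (minus strand), that of Sema4a at chr3:88461133-88461432 (minus strand), that of Sema4b at chr7:80186620-80186919 (plus strand) and that of Plxnb2 at chr15:89180739-89181038 (minus strand).
Sema4c: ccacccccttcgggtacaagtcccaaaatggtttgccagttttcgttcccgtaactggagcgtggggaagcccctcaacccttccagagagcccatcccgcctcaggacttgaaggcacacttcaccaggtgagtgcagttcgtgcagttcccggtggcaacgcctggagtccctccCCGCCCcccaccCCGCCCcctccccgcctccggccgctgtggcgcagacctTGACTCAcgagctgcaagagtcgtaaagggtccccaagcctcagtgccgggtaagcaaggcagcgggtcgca
Sema4a: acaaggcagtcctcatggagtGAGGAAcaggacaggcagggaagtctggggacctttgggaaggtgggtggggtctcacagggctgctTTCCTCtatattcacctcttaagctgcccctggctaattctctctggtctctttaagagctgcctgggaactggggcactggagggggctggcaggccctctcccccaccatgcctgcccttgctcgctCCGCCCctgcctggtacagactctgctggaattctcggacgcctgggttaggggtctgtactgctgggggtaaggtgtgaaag
Sema4b: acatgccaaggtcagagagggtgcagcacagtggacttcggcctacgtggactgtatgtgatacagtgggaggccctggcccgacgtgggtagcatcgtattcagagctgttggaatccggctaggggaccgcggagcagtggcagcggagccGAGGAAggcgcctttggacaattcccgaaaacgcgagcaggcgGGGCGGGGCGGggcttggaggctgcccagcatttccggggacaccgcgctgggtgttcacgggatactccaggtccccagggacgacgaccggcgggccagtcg
Plxnb2: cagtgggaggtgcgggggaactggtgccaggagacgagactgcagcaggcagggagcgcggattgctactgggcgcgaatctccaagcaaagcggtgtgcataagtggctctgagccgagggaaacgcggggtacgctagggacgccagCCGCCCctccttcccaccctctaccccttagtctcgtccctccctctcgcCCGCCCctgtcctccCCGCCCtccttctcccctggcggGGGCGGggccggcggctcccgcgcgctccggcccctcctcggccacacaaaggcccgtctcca

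The 4 windows each held at least 1 GC box, the letters bound by Sp1-type factors. Plxnb2 had 4 of them, Sema4b and Sema4c had 2 each, and Sema4a had 1. The 2 matches of Sema4b overlap in 1 run, at positions -54 and -49 from the start site. Only Sema4c had an AP-1 site, at position -22. Sema4a had 2 PU.1 cores and Sema4b had 1. The other motifs searched, the CCAAT box, the TATA box (TATAAA), the E-box CACGTG and the CRE TGACGTCA, had no match in these 4 windows. GC content was 70.3% in Plxnb2, 65.3% in Sema4b, 64.3% in Sema4c and 59.7% in Sema4a, against a median of 52.7% over all windows. Windows were at hand for 26 of the 31 members. These are 1 window per member, whereas a gene can have several among all windows. GC content was above the median in 21 of the 26, and its part in the following shares was not tested. A GC box was found in 20 of these 26 windows (76.9%) and in 35.7% of the 32851 windows of all genes. A PU.1 core was found in 9 of 26 (34.6%) and in 28.3% of all windows, a CCAAT box in 4 (15.4%) and in 37.4%, an AP-1 site in 1 (3.85%) and in 5.2%, an E-box in 2 (7.69%) and in 7.15%, and a TATA box in none of 26 and in 13.6%. A match is a string of letters and was not tested as a bound site.

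Of the 31 members, 19 passed the filter on low counts and were tested, and 12 did not and are given further down as counts. The tested members were 9 of the 20 semaphorins, 8 of the 9 plexins and both neuropilins. In wild-type libraries Plxnb2 had the highest level per length (204 RPKM), followed by Plxnd1 (110), Sema4d (87.1), Nrp2 (57.0) and Plxna1 (40.4). In this stretch of the order each gene was above the next in all 3 wild-type libraries. Plxnc1 (30.2 RPKM), Nrp1 (28.2) and Sema4a (24.0) came next, and Plxnc1 and Nrp1, like Nrp1 and Sema4a, overlapped between libraries. Sema6b followed at 4.76 RPKM. Sema4b (2.64), Sema4c (2.59) and Plxna2 (2.29) overlapped, each with the next. Below them Plxna3 (0.957), Plxnb3 (0.881) and Sema6d (0.586) were the last members above 0.2 RPKM, and Plxna3 and Plxnb3 overlapped. The first 9 ranks were the same genes in Scd2-m/-m libraries.

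**Figure D1:**
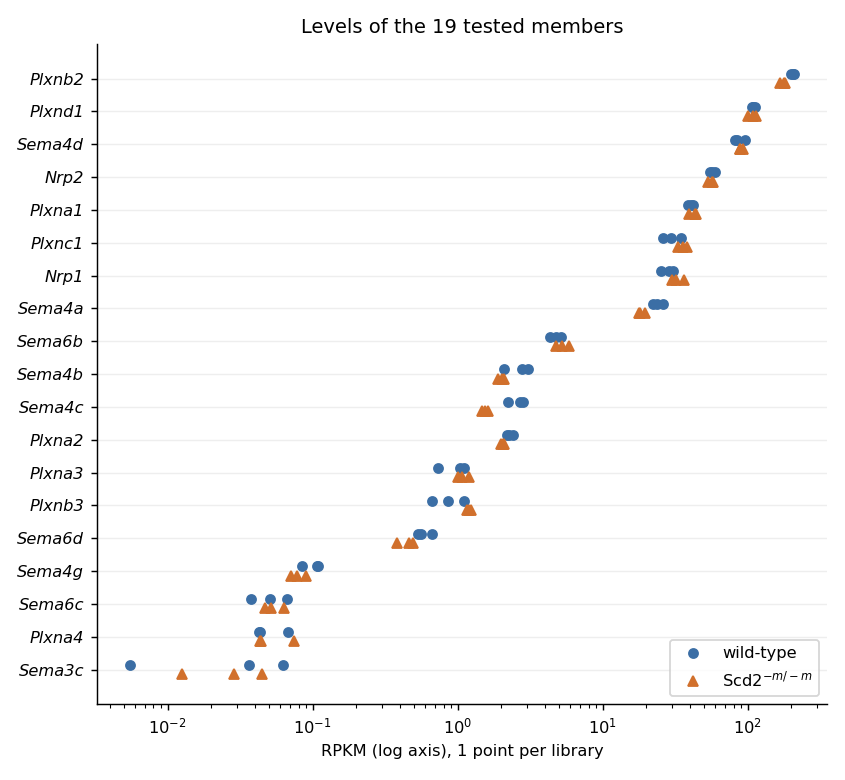
Level of the 19 tested members in RPKM on a log axis, with 1 point for each of the 3 wild-type and 3 Scd2-m/-m libraries. The 8 members from Plxnb2 to Sema4a lie above 17 RPKM in every library, and Sema6b comes next at about 5 RPKM.

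The 20 semaphorins summed to 122 ± 4.87 RPKM in wild-type and 119 ± 2.10 in the Scd2-m/-m libraries (mean ± SD, n = 3 each). The 9 plexins summed to 389 ± 13.2 and 366 ± 13.9 RPKM, and the 2 neuropilins to 85.2 ± 0.660 and 88.8 ± 1.24 RPKM. The libraries overlapped for the semaphorins, and for the plexins the highest Scd2-m/-m library (378.3 RPKM) was just below the lowest wild-type library (378.9). For the neuropilins the lowest Scd2-m/-m library (87.4) was above the highest wild-type library (85.8). These sums were not tested. Within the plexin sum Plxnb2 went from 204 to 176 RPKM, and the other plexins went in both directions. Nrp1 and Nrp2 each overlapped between genotypes. Among all tested genes, 34.9% had libraries that did not overlap between genotypes.

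The comparison of the genotypes asked which of these genes differ between macrophages labelled wild-type and Scd2-m/-m. Sema4c, Sema4a, Sema4b and Plxnb2 were lower in Scd2-m/-m, and no member was higher at an FDR below 0.05. The 4 genes are 21.1% of the 19 tested members. Over all 14778 genes tested, 7.84% were called lower, 9.65% higher and 17.5% in either direction. At an unadjusted edgeR p below 0.05, 3 members were higher (Plxnb3, Nrp1 and Plxnc1) and 6 were lower. Such values were frequent over all 14778 genes, where a p of 0.0431 held rank 4250 and a p of 0.0511 rank 4497. Of the 3 higher members, DESeq2 called 1, Plxnb3, limma-voom called 0, and limma-voom with quality weights called all 3. Over all tested genes these fits called 1450, 1387 and 2325 genes higher. The median log2 fold change was -0.02 over the tested members and 0.0039 over all tested genes. The libraries of the 2 genotypes did not overlap for 7 of the 19 members (36.8%), 1 with Scd2-m/-m above and 6 with Scd2-m/-m below, against 34.9% of all tested genes (17.9% above and 17.0% below). An exact two-sided permutation test of 3 libraries against 3 cannot give a p below 0.1, so FDR values are from the edgeR fit across genes unless another tool is named.

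Sema4c (ENSMUSG00000026121, chr1:36548639-36558349, minus strand) is a transmembrane semaphorin and a ligand of plexin-B2. It was measured at 13.1, 12.4 and 10.3 CPM in wild-type libraries and at 6.74, 7.14 and 7.47 CPM in Scd2-m/-m libraries. The groups were well apart, and the spread within Scd2-m/-m was small. The mean level in Scd2-m/-m was 59.7% of wild-type, with a log2 fold change of -0.74 (SE 0.11, 95% interval -0.98 to -0.51, FDR 3.6e-04). It was the lowest p among the members and rank 393 among the 14778 genes. An opposite-strand transcript, D430040D24Rik, covers 649 bases of the gene and was near 0 CPM in both genotypes.

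Sema4a (ENSMUSG00000028064, chr3:88435959-88461182, minus strand) is a ligand of plexin-D1 and plexin-B receptors and is known as a costimulator of T cells on dendritic cells. Its levels were 119.5, 129.2 and 140.5 CPM in wild-type and 95.9, 98.3 and 105.8 CPM in Scd2-m/-m. All Scd2-m/-m libraries were below all wild-type libraries. The log2 fold change was -0.38 (SE 0.07, 95% interval -0.52 to -0.23, FDR 0.00185), a mean level of 77.1% of wild-type.

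Sema4b (ENSMUSG00000030539, chr7:80186841-80226527, plus strand), another membrane-bound class 4 member, stood at 11.8, 15.8 and 17.2 CPM in wild-type and 11.4, 11.7 and 10.7 CPM in Scd2-m/-m. Wild-type replicate 1 was level with the Scd2-m/-m libraries, and the groups were separated by a narrow gap. The log2 fold change was -0.40 (SE 0.12, 95% interval -0.67 to -0.14, FDR 0.0345). The call was lost with limma-voom (FDR 0.0570) and when any library other than wild-type replicate 1 was left out, with FDR values between 0.0825 and 0.136.

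Plxnb2 (ENSMUSG00000036606, chr15:89155549-89180788, minus strand) encodes plexin-B2, a receptor of class 4 semaphorins, and had the highest level of all members. It was measured at 1542, 1575 and 1618 CPM in wild-type and at 1406, 1366 and 1296 CPM in Scd2-m/-m. The groups did not overlap, and the size of the difference was small, with a mean level of 85.9% of wild-type. The log2 fold change was -0.22 (SE 0.06, 95% interval -0.36 to -0.08, FDR 0.0289). The FDR rose to 0.110 without wild-type replicate 2, 0.0759 without wild-type replicate 3, 0.114 without Scd2-m/-m replicate 2 and 0.0843 without Scd2-m/-m replicate 3.

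**Figure D2:**
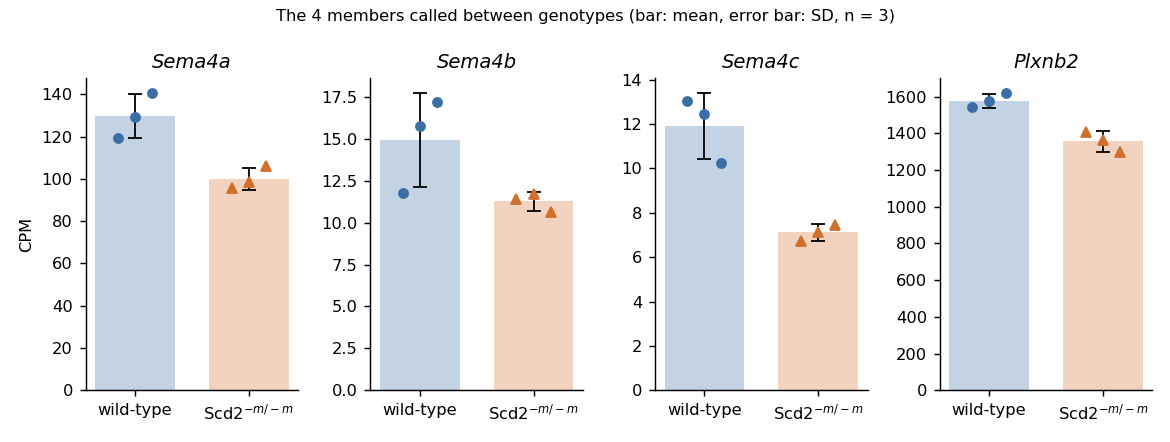
CPM of Sema4a, Sema4b, Sema4c and Plxnb2, each on its own axis from 0, with bars for the mean of 3 libraries, error bars for the SD and 1 point per library. In each panel the 3 Scd2-m/-m points lie below the 3 wild-type points, by the narrowest gap in Sema4b.

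The other class 4 genes did not pass the test. Sema4d, also named CD100, is shed from the surface of immune cells and binds plexin-B receptors. Its levels were 733, 646 and 628 CPM in wild-type and 716, 684 and 684 CPM in Scd2-m/-m. These ranges lie within each other, and the log2 fold change was 0.06 (95% interval -0.09 to 0.20, FDR 0.645), which bounds the mean in Scd2-m/-m between 93.7% and 115% of wild-type. Sema4g was near 1 CPM, with means of 0.870 and 0.691 CPM and an FDR of 0.454. It lies 682 kb from Scd2 on chromosome 19.

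Set against Sema4d in the same library, the level of Sema4a per length was 23.2%, 28.4% and 31.8% in wild-type and 19.01%, 20.41% and 21.98% in the Scd2-m/-m libraries. The corresponding ratio of Sema4c was 2.98%, 3.22% and 2.73% in wild-type and 1.57%, 1.74% and 1.83% in the Scd2-m/-m libraries. Neither ratio overlapped between genotypes (exact permutation p = 0.1 for each, the smallest possible). Sema4a and Sema4c were themselves called lower, so neither ratio is separate evidence of a difference. The ratio of Sema4b to Sema4d overlapped, at 3.08% ± 0.797 and 2.21% ± 0.112 (SD, n = 3, exact permutation p = 0.2). Sema4d made up 71.3% ± 3.16 of summed semaphorin RPKM in wild-type and 76.3% ± 0.771 in the Scd2-m/-m libraries, and Sema4a made up 19.7% ± 2.25 and 15.6% ± 0.980. Shares of the same sum depend on each other, and Sema4d itself was not called. Class 4 as a whole held 95.44% ± 0.592 and 94.96% ± 0.275.

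The class 6 semaphorins are membrane proteins that bind class A plexins. Sema6d, which acts through plexin-A1 and plexin-A4, stood at 5.64, 5.94 and 6.98 CPM in wild-type and 4.03, 5.17 and 4.89 CPM in Scd2-m/-m. The libraries did not overlap and the test was missed by a little (log2 fold change -0.40, SE 0.14, FDR 0.0576), which was passed with DESeq2 and without wild-type replicate 1. Sema6b had means of 18.9 ± 1.69 and 21.0 ± 2.06 CPM (FDR 0.294), with overlapping libraries. Sema6c was below 0.4 CPM in every library (FDR 0.936). Of the 7 class 3 genes only Sema3c passed the filter, at between 0.0394 and 0.443 CPM in wild-type and between 0.0896 and 0.318 CPM in Scd2-m/-m. Its interval ran from -1.72 to 1.16 on the log2 scale, so a doubling or a halving would not have been detectable at this depth.

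Among the other plexins, Plxnd1, the receptor of Sema3e, was measured at 794, 785 and 827 CPM in wild-type and at 840, 791 and 739 CPM in Scd2-m/-m. The libraries overlapped and the log2 fold change was -0.02 (95% interval -0.16 to 0.12, FDR 0.864). Plxna1, a receptor of Sema6d and class 3 semaphorins, had 365 ± 13.5 and 381 ± 22.8 CPM (95% interval of the log2 fold change -0.08 to 0.20, FDR 0.572), also with overlapping libraries.

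Plxnc1, the receptor of Sema7a, stood at 219, 247 and 290.5 CPM in wild-type and 278, 297.5 and 319 CPM in Scd2-m/-m. Wild-type replicate 3 lay among the Scd2-m/-m libraries, and the difference was not called (log2 fold change 0.24, SE 0.09, FDR 0.0968). Plxnb3, a receptor of Sema5a, was at 4.33, 5.59 and 7.24 CPM in wild-type and at 8.05, 7.82 and 7.55 CPM in Scd2-m/-m. It was the only tested member with all Scd2-m/-m libraries above wild-type, by a small gap (log2 fold change 0.45, SE 0.15, FDR 0.0610). Without wild-type replicate 3 the log2 fold changes of Plxnc1, Plxnb3 and Nrp1 were 0.35, 0.65 and 0.28, and each passed the threshold. Without wild-type replicate 1 they were 0.15, 0.28 and 0.15, with FDR values of 0.242, 0.186 and 0.230.

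Plxna2, a receptor of class 6 semaphorins, was at 39.1, 41.2 and 37.7 CPM in wild-type and 36.1, 34.2 and 35.3 CPM in Scd2-m/-m. The groups did not overlap, and the FDR was 0.104 (log2 fold change -0.16). Among the alternative fits it was called only with limma-voom and quality weights (log2 fold change -0.21, FDR 0.00968). Plxna3, which pairs with neuropilin-2 for Sema3f, had 7.54 ± 1.57 and 8.61 ± 0.820 CPM (FDR 0.395). Plxna3 and Plxnb3 are on the X chromosome, and Xist, which is transcribed from the inactive X, stood between 657.7 and 842.5 CPM in all 6 libraries. The Y-linked genes Ddx3y, Eif2s3y and Kdm5d had 0 counts in every library, and Uty had at most 6. By these transcripts all 6 libraries read as female. Plxna4 was near 0.7 CPM in both genotypes (FDR 0.914). Its antisense neighbour Plxna4os1 had 2.01 and 2.35 CPM. Whether exons of the pair overlap was not checked, and without knowledge of strand reads on shared bases cannot be told apart.

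In plexin RPKM, Plxnb2 held 52.7%, 53.1% and 51.9% of the sum in wild-type libraries and 48.1%, 48.0% and 47.8% in Scd2-m/-m libraries. The share held by Plxnc1 was 7.74% ± 0.847 and 9.78% ± 1.05, and the share of Plxna1 was 10.4% ± 0.280 and 11.5% ± 0.347. Within a library, Plxnb2 stood at 186% ± 3.27 of Plxnd1 in wild-type and 162% ± 3.82 in the Scd2-m/-m libraries, with no overlap. Plxnc1 stood at 14.7% ± 1.75 of Plxnb2 in wild-type and 20.4% ± 2.25 in the Scd2-m/-m libraries, again without overlap (exact permutation p = 0.1 for both ratios, n = 3 each). Plxnb2 was itself called lower, so neither ratio is separate evidence of a difference, and Plxnc1 alone overlapped between genotypes.

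**Figure D3:**
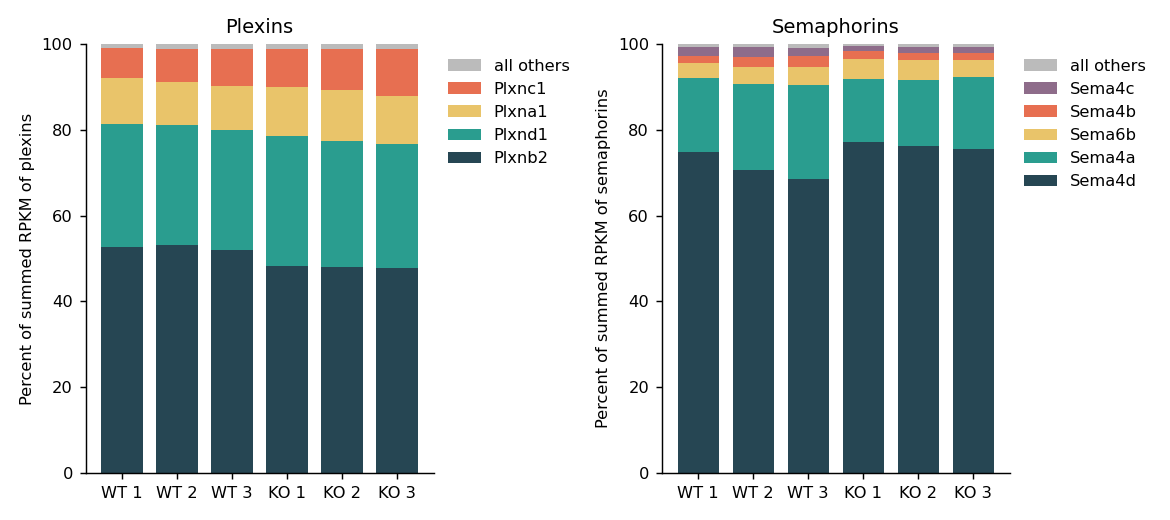
Share of each gene in the summed RPKM of the plexins (left) and the semaphorins (right), as percent, in each library. WT 1 to 3 are the wild-type libraries and KO 1 to 3 the Scd2-m/-m libraries, and the lowest segment shows Plxnb2 at 52.6% against 48.0% on average and Sema4d at 71.3% against 76.3%.

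The neuropilins gave no call. Nrp1, co-receptor of Sema3a and of VEGF-A, was measured at 246, 283 and 297.5 CPM in wild-type and at 294, 316 and 356 CPM in Scd2-m/-m. The lowest Scd2-m/-m library was just below the highest wild-type library, and the log2 fold change was 0.23 (SE 0.08, 95% interval 0.05 to 0.40, FDR 0.0814). Without Scd2-m/-m replicate 1 it was 0.29 and passed the threshold, and without Scd2-m/-m replicate 3 it was 0.15 (FDR 0.260). Nrp2, co-receptor of Sema3f and of VEGF-C, was at 703, 674 and 649 CPM in wild-type and 679, 672 and 633 CPM in Scd2-m/-m. The ranges overlapped, with a log2 fold change of -0.03 (95% interval -0.17 to 0.10, FDR 0.796). Nrp1 stood at 49.6% ± 6.68 of Nrp2 per length in wild-type and 59.1% ± 8.08 in the Scd2-m/-m libraries, with overlap (exact permutation p = 0.2, n = 3 each). In all, 4 members had an FDR between 0.05 and 0.10 (Sema6d, Plxnb3, Nrp1 and Plxnc1), a band that held 6.00% of all tested genes. At an FDR below 0.10 this made 8 of 19 members (42.1%), against 23.5% of all tested genes.

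**Figure D4:**
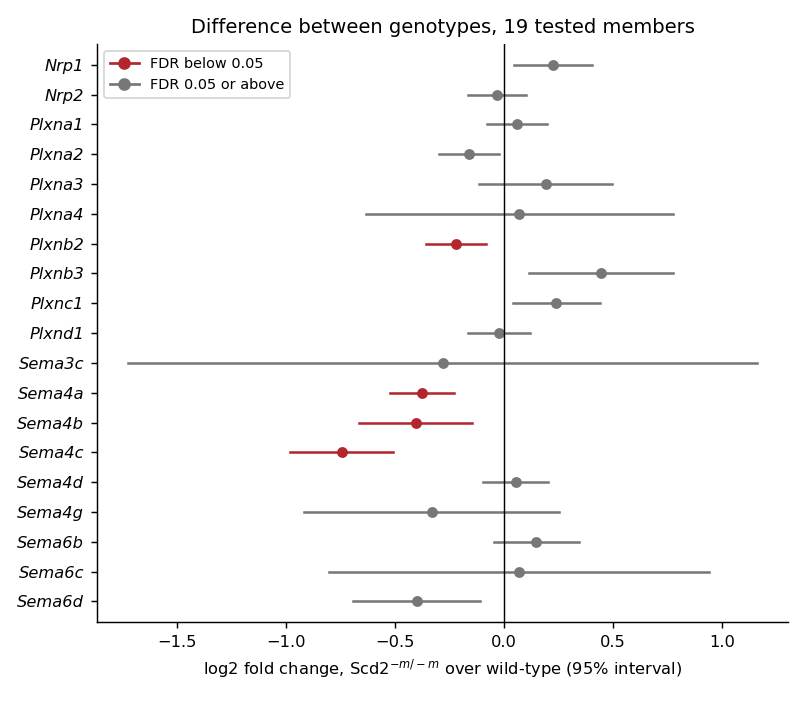
Log2 fold change of Scd2-m/-m over wild-type for the 19 tested members, with 95% intervals from the edgeR fit, and the 4 members with an FDR below 0.05 in red. The red intervals of Sema4a, Sema4b, Sema4c and Plxnb2 lie left of 0, and the interval of Sema3c is the widest.

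The 12 members that did not pass the filter had at most 25 counts, or 0.492 CPM, in any library. They are 6 class 3 semaphorins, Sema4f, Sema5a, Sema5b, Sema6a, Sema7a and Plxnb1. Sema4f had 0 counts over the wild-type libraries and 7 over the Scd2-m/-m libraries, at 2, 2 and 3 counts. With a floor of 3 counts in place of the wild-type 0, the ratio was 2.08. That value takes the 7 counts as exact and is no lower bound. The FDR of Sema4f was 0.267 in the edgeR fit without the filter. Sema3g had 1 count in wild-type and 6, 7 and 4 counts in Scd2-m/-m, a ratio of 15.2 with a 95% counting interval of 2.38 to 634. Sema7a, a ligand of plexin-C1 and of integrins, had 11 counts in wild-type and 33 in the Scd2-m/-m libraries, a ratio of 2.68 with an interval of 1.32 to 5.87. Here the higher values were in Scd2-m/-m, at very few counts.

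In Sema3b and Sema5b 1 library carried most of the counts. Sema3b had 28 counts in wild-type, of which 25 were in replicate 3, and 8 in Scd2-m/-m. Sema5b had 2 counts in wild-type and 20 in the Scd2-m/-m libraries, of which 15 were in replicate 3. Sema3a, ligand of neuropilin-1, had 8 and 9 counts, Sema3f 25 and 31, and Plxnb1, a plexin-B receptor of Sema4d, 15 and 13. Sema5a had 11 and 22 counts, Sema6a 3 and 11 with each Scd2-m/-m library above each wild-type library, Sema3e 4 and 6, and Sema3d 0 and 1. When all genes with at least 1 count were fitted, none of the 12 passed an FDR of 0.05 and 3 had an unadjusted p below 0.05 (Sema3g, Sema5b and Sema3b, FDR 0.128 to 0.185). Intervals cover counting error only, and the floor used for Sema4f covers only that of its 0 counts in wild-type. Even numbers made up 60.9% to 64.9% of the counts from 1 to 20 in a library, so a count may not stand for a single read.

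Beyond the members, 56 genes were listed as co-receptors, other ligands of neuropilins and effectors of plexins. Of these, 45 were tested, 10 were higher (22.2%, against 9.65% of all tested genes) and 4 were lower (8.89%, against 7.84%) in Scd2-m/-m. Their median log2 fold change was 0.00. Among effectors, Dpysl2, whose product CRMP2 binds tubulin and carries the Sema3a signal, was at 164, 170.3 and 169 CPM in wild-type and 226, 207 and 203 CPM in Scd2-m/-m. The libraries were apart, with a log2 fold change of 0.34 (SE 0.06, FDR 0.00141). Mical2, an enzyme that oxidises actin filaments, rose from 17.8 ± 2.05 to 24.5 ± 1.26 CPM (log2 fold change 0.46, FDR 0.00229). Mical3, of the same family, fell from 7.14 ± 0.881 to 5.32 ± 0.529 CPM (log2 fold change -0.43, FDR 0.0344).

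The kinase Fyn rose from 41.3 ± 1.93 to 51.9 ± 2.37 CPM (log2 fold change 0.33, FDR 0.00293), and Cdk5, a kinase that acts on CRMP proteins, rose from 29.4 ± 0.567 to 34.8 ± 1.69 CPM (log2 fold change 0.25, FDR 0.0181). Rnd2, a small GTPase that binds plexins, rose from 11.1 ± 1.12 to 15.4 ± 1.99 CPM (log2 fold change 0.46, FDR 0.00930). Rras2, of the R-Ras family on which plexins act, rose from 0.598 ± 0.0729 to 1.52 ± 0.203 CPM (log2 fold change 1.34, FDR 0.00192). In all 4 genes the Scd2-m/-m libraries were above the wild-type libraries.

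Farp1, an exchange factor for Rac, Nrcam, an adhesion molecule that joins neuropilin-2, and Erbb2, a receptor kinase that joins plexin-B receptors, were rare. Farp1 rose from 0.123 ± 0.0417 to 0.393 ± 0.0648 CPM, Nrcam from 0.739 ± 0.309 to 1.48 ± 0.225 CPM and Erbb2 from 0.118 ± 0.0700 to 0.423 ± 0.186 CPM, with FDR values of 0.0236, 0.0305 and 0.0334. Vegfa, the VEGF ligand of neuropilin-1, fell from 105 ± 4.08 to 86.9 ± 2.51 CPM (log2 fold change -0.27, FDR 0.00572). Tyrobp, the adaptor DAP12, fell from 1157 ± 58.3 to 1001 ± 5.02 CPM (log2 fold change -0.21, FDR 0.0355). Pak1 and Mical1, chosen after their values were seen, were the other called partners, at a log2 fold change of -0.20 and 0.26 (FDR 0.0431 and 0.0487).

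Receptors outside the plexin family are also known for Sema4d, Sema4a and Sema6d, and the following 3 were chosen after their values were seen. Cd72, a lymphocyte receptor of Sema4d, had 288.5 ± 37.3 and 267 ± 23.2 CPM (FDR 0.449). Trem2, which joins plexin-A1 and DAP12, had 705 ± 42.6 and 698 ± 47.4 CPM (FDR 0.919). Timd2, a receptor of Sema4a, had 0 counts in all 6 libraries.

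**Figure D5:**
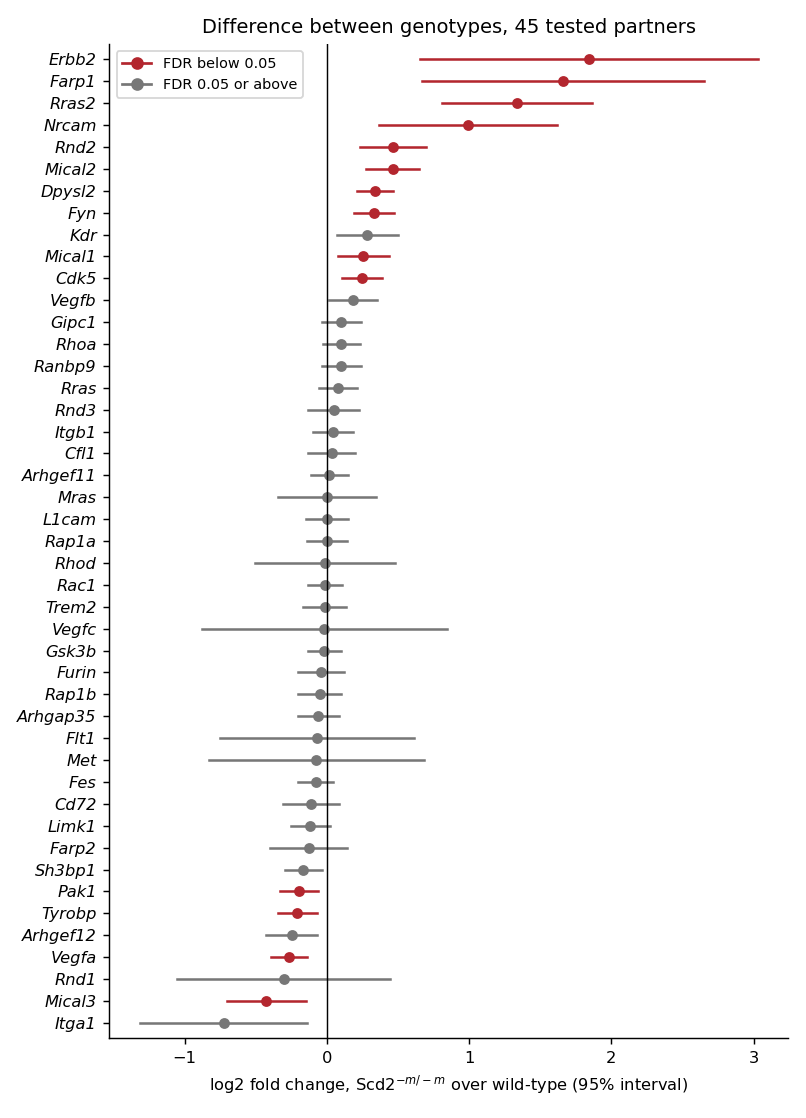
Log2 fold change of Scd2-m/-m over wild-type for the 45 tested partner and effector genes, ordered by size, with 95% intervals and the 14 genes with an FDR below 0.05 in red. The 10 red genes right of 0 run from Cdk5 to Erbb2, and the 4 left of 0 are Pak1, Tyrobp, Vegfa and Mical3.

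Other gene lists moved between the same libraries, and their part in the results on the members was not tested. All 10 cell division genes were higher in Scd2-m/-m, and their summed level went from between 49.6 and 59.6 CPM in wild-type to between 152 and 164 CPM. Of the 10 macrophage markers 6 were lower and 1 was higher, and their sum went from between 38662 and 39727 CPM to between 22338 and 22940 CPM. The largest part of that sum, and of its fall, was Lyz2, the gene that holds the lysozyme M-Cre transgene, at 22751 ± 584 and 9030 ± 357 CPM. Lyz2 was at 39.7% of wild-type, and the part of the transgene in that was not tested. The other markers called lower stood between 71.2% (Adgre1) and 79.8% (Mertk) of wild-type, and Cd68, which was called higher, at 117%. In bulk RNA, fewer cells that express a gene and less RNA of it per cell cannot be told apart.

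Markers of other cell types were measured in the same libraries. Of the 8 endothelial markers 1 was higher (Vwf) and 1 lower (Pecam1, from 2.55 ± 0.0827 to 1.02 ± 0.0707 CPM). Their sum was 49.8 to 56.3 CPM in wild-type and 75.4 to 93.3 CPM in Scd2-m/-m and was mostly Vwf. Cdh5, Tek and Tie1 were each under 1 CPM. Of the 8 dendritic cell markers 2 were higher (Flt3 and Ccr7), with a sum of 3.04 to 4.64 and 4.22 to 5.52 CPM. Of the 10 neutrophil markers 5 were higher and 1 was lower, with a sum of 183 to 191 and 160.4 to 192 CPM that was mostly Csf3r. Csf3r fell from 164 ± 6.16 to 135 ± 12.02 CPM, while S100a8, S100a9, Mpo, Ltf and Ngp rose, as in S100a9 from 2.79 ± 0.359 to 8.74 ± 1.53 CPM and in Ngp from 2.51 ± 0.789 to 8.42 ± 1.66 CPM, and Ly6g was at 0 and 0.0234 CPM. Of the 8 B cell markers 2 were higher, with a sum of 54.2 to 120 and 83.7 to 116 CPM, mostly Ighm. The 8 osteoclast genes gave 2 higher and sums of 179.8 to 193 and 211 to 217 CPM, with Calcr at 0. The 8 fibroblast, 8 mast cell and 8 T and NK cell markers gave no call and summed to at most 4.53 CPM in any library. The 8 erythroid or megakaryocyte markers gave 1 lower, Pf4, with sums of 52.4 to 61.6 and 41.6 to 43.4 CPM.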

How the data were processed

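RNA of BMDMs from 3 wild-type and 3 Scd2-m/-m samples was poly(A)-selected (RNA integrity numbers of at least 9.3) and sequenced on an Illumina instrument. Reads were aligned by the authors with STAR (GRCm38), and the deposited values are raw counts on each gene. The sources used here do not name the tool that counted them or say whether it used strand. A further deposited table holds the authors' genotype comparison by edgeR and limma (fold changes, confidence limits, p-values and log2 CPM) and was not used.

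The count table had 40757 entries, of which 276 repeated a gene with the same counts and were removed. Coordinates and exonic length were taken from the GENCODE annotation of GRCm38 and found for 99.7% of genes. Genotypes were compared with edgeR 4.0.16 (filterByExpr on genotype, TMM factors between 0.979 and 1.02, glmQLFit with robust estimation, glmQLFTest) under R 4.3.3 (limma 3.58.1, statmod 1.5.0), on all 14778 genes that passed the filter. Benjamini-Hochberg adjustment ran over all of these genes (FDR), and genes with an FDR below 0.05 were called. Standard errors were derived from each gene's log2 fold change and F statistic. The labels number the samples but do not say that they came from separate mice or cultures, so p-values measure the spread between these samples, which may be technical. The fit was run on simulated data with known changes as a check of the code. Those data had far fewer changed genes than were called here, so they do not give the error rate of these calls.

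The members, the partner list, the marker lists and the tests were chosen with earlier results of these data known. Every member was named, and of the partners the called genes with the smallest p, up to 12. Alternatives were RLE and upper-quartile factors, limma-voom (plain or with quality weights), DESeq2 1.42.0, other filters, counts halved, a replicate block, other thresholds, and each library left out in turn. Promoter windows were taken from RefSeq (GRCm38.p6), with the start site farthest upstream where a gene had several, and motifs were searched on both strands. Plxna1, Plxna4, Sema3b, Sema3f and Sema6a had no window.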

Additional observations from a re-analysis of the deposited data

How the results depend on the processing

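Sema4c and Sema4a were called in all 16 alternatives of fit, filter, scaling or library, with log2 fold changes of -0.84 to -0.67 and -0.43 to -0.32. Plxnb2 was called in 12 and Sema4b in 10 of 16. Members called higher numbered 0 in the edgeR comparison, 1 with DESeq2 (Plxnb3), and 3 with limma-voom with quality weights, without a filter on low counts, or at an FDR below 0.10, and 0 to 3 when 1 library was left out. Members called lower numbered 2 at an FDR below 0.01, 0 with an absolute log2 fold change above 1, and 2 to 5 with 1 library left out. With limma-voom and quality weights 2325 genes were called higher and 2182 lower, against 1426 and 1159. At an FDR below 0.01 the counts were 783 and 548, with an absolute log2 fold change above 1 they were 342 and 78, and with 1 library left out 869 to 1392 and 571 to 1175. The lowest were without wild-type replicate 2 (869 and 621) and without Scd2-m/-m replicate 2 (869 and 571). Partners called higher numbered 5 at an FDR below 0.01, 3 with the fold threshold, and 5 to 8 with 1 library left out. Partners called lower numbered 7 with quality weights or at an FDR below 0.10, 1 at an FDR below 0.01, 0 with the fold threshold, and 1 to 3 with 1 library left out. Both lowest counts of partners were without replicate 2 of either genotype.

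The sign turned only in members far from a call. Sema3c was at 0.0707 with limma-voom and 0.3751 with quality weights, and ran from -0.79 to 0.46 with 1 library left out, and Sema6c was at -0.0541 with quality weights and ran from -0.12 to 0.29. With 1 library left out Plxna4 ran from -0.23 to 0.32, Plxnd1 from -0.0684 to 0.0244 and Nrp2 from -0.0591 to 0.0009. Samples that share a replicate number did not deviate together (correlations of 0.0530, -0.0196 and 0.0398), so the number was not taken as a pairing. With it as a replicate block 3 members were higher (Nrp1, Plxnb3 and Plxnc1) and 5 lower (Sema6d in addition), 1615 genes were higher and 1359 lower, and partners numbered 10 higher and 6 lower. The cause of these shifts was not tested. Below about 1 CPM a gene rests on few counts, and for 12 of the 31 members no difference could be tested.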
